A study of Mus musculus with 12 samples.

Results

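The synaptic vesicle fusion genes described here are the genes of 4 families, the synaptotagmins (Syt), syntaxins (Stx), vesicle-associated membrane proteins (Vamp) and complexins (Cplx), together with Snap25 and the synapsins Syn1, Syn2 and Syn3. They were taken by symbol from the expression table, every row whose symbol begins with a family name followed by a digit, and number 48 of 18962 genes. There were 17 Syt, 15 Stx, 8 Vamp and 4 Cplx genes, 3 synapsins and Snap25.

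A synaptic vesicle fuses with the presynaptic membrane when its SNARE protein, synaptobrevin (encoded by Vamp1 and Vamp2), zips together with syntaxin-1 and SNAP-25, the SNARE proteins of the target membrane. Synaptotagmins on the vesicle bind calcium and trigger the final step, complexins clamp and then assist the assembled SNARE complex, and synapsins hold vesicles in reserve behind the release site. Relatives of the same proteins run fusion at the Golgi, endosomes and lysosomes of every cell, so the families hold both presynaptic and housekeeping members.

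The tissue was the brain of wild-type CBA/N mice, an inbred laboratory strain, dissected free of cerebellum and olfactory bulb. The 4 groups held 3 libraries each. Female winter and male winter mice had spent 4 weeks at 10 °C on 8 h light and 16 h dark, and female summer and male summer mice 4 weeks at 30 °C on 16 h light and 8 h dark. Day length and temperature differed together and cannot be told apart. The groups were read from letter codes (M or F with SC or LW) that the labels do not spell out, and a Y-linked gene matched the sex code in 12 of 12 libraries. Whether the 3 libraries of a group came from different animals is not stated in the labels, and a p-value then covers only the spread among these libraries, which could be technical. Values are FPKM, fragment numbers divided by the transcript's length and by the library's total, and so are levels per length. In whole tissue, fewer cells of a type and less RNA per cell cannot be told apart, and mRNA levels say nothing of protein.

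Library sums lay between 358511 and 375041 FPKM, and read depth is unknown. Neuronal markers were present in every library, 12 of 12 genes on the list, with sums between 2409 and 2737 FPKM. The library of male winter replicate 1 held 154 FPKM over 14 cerebellar markers, against 59.5 FPKM or less in the other 11 libraries, although the labels describe the cerebellum as removed. The limma comparisons of the members were also run without this and every other library in turn.

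Snap25, on chromosome 2 (chr2:136713439-136782428, GRCm38.p6), was the most abundant of the 48 genes. It had 1680, 1468 and 1413 FPKM in female winter brains, 1463, 1346 and 1520 FPKM in female summer brains, 1633, 1532 and 1411 FPKM in male winter brains and 1580, 1472 and 1490 FPKM in male summer brains. The ranges of the 4 groups overlapped. Its mean of 1501 FPKM was 31.7% of the summed level of all 48 genes.

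The other families followed at lower sums. The synaptotagmins together held 985 ± 12.3 FPKM (SD, n = 12), the Vamp genes 672 ± 65.4 FPKM, the complexins 638 ± 36.4 FPKM, the syntaxins 573 ± 12.9 FPKM and the synapsins 362 ± 30.2 FPKM. Neurotransmitter-release members had the highest means in the Vamp genes, complexins and synaptotagmins, with Vamp2 at 501 FPKM, Cplx1 at 371 FPKM and Syt1 at 361 FPKM. Together the 48 genes made up between 1.22% and 1.37% of each library.

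In the order of levels, 9 of 47 neighbouring pairs did not overlap between libraries. These steps lay below Snap25, Vamp2, Syt1, Syn2, Vamp1, Stx12, Stx4a, Syt12 and Cplx3. Between those steps the ranges of neighbours overlapped: Cplx1 spanned 322 to 404 FPKM and Syt1 spanned 349 to 375 FPKM. These ranges pool the libraries, and of the neighbours only Syn1 and Syn2 are compared within single libraries, below. Syt11 and Syn1, with means of 218 and 192 FPKM, overlapped likewise.

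**Figure D1:**
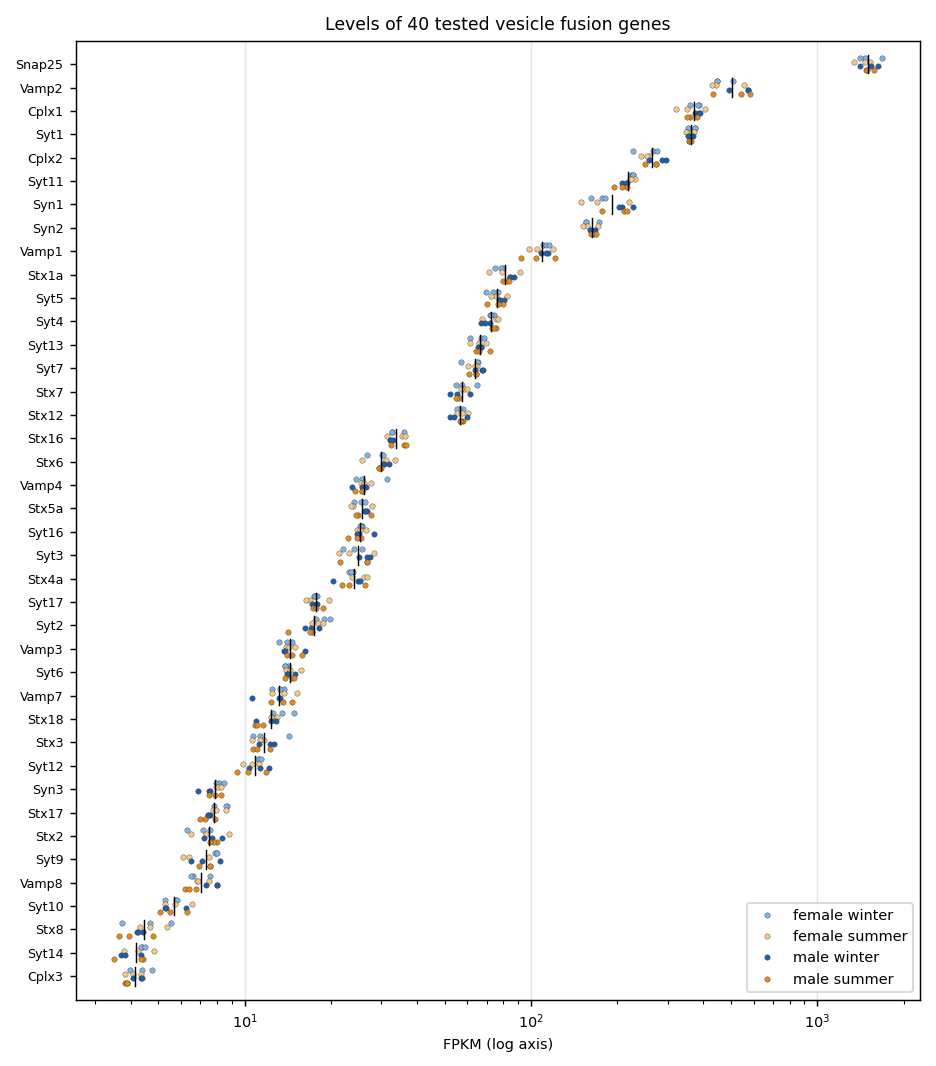
FPKM (log axis) of 40 of the 41 genes that passed the filter on low values, ordered by their mean. Each point is 1 library, coloured by group, and the short bar is the mean of 12 libraries. Snap25 stands alone at about 1501 FPKM, the release genes Vamp2 to Vamp1 lie between 109.5 and 501 FPKM, and the winter and summer points of each gene plotted overlap.

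The least abundant members were not tested. A filter asked for at least 1 FPKM in at least 3 libraries, and 41 members passed it. The 7 that did not were Vamp5 at 0.608 FPKM, Syt15 at 0.379 FPKM, Vamp9 at 0.243 FPKM, and Stx11, Cplx4, Stx19 and Syt8, all below 0.05 FPKM on average. Stx19 and Syt8 were listed above 0 in 1 library each. The gap at the filter was wide, since the lowest members inside it were Syt14 at 4.19 FPKM and Cplx3 at 4.14 FPKM. Cplx3 and Cplx4 are the complexins of retinal ribbon synapses, and Vamp5 is a SNARE best known from muscle.

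The comparison of winter-like with summer-like housing asks whether the mRNA of the release machinery follows the season. No member differed between the seasons at an adjusted p under 0.05. Over both sexes, limma called 0 of 41 members, beside 1 of 13071 genes (0.00765%). The members with an unadjusted p under 0.05 were also 0 of 41, against 4.88% of all genes. That count ranged from 0 to 3 with single libraries left out, with 3 without female summer replicate 1, and was 2 of 48 with no filter. The share of all genes past that threshold in those fits was not counted. Winter and summer libraries did not overlap for 0 of 41 members, against 0.283% of all genes, 0.115% higher and 0.168% lower. Differences of the members ranged from -0.09 to 0.10 on the log2(FPKM + 1) scale, with a median of 0.02 beside -0.00301 for all genes. The widest 95% intervals reached -0.23 and 0.23. A member's season difference over both sexes beyond 0.851-fold or 1.17-fold, taken on FPKM + 1, thus lies outside all 41 intervals. Each is a single 95% interval, not adjusted for the number of members. Within 1 sex the intervals were wider, reaching 0.8135-fold and 1.326-fold in females and 0.798-fold and 1.31-fold in males. A p above the threshold does not show that levels were equal. Of the 41, 27 were positive and 14 negative, and 47.9% of all genes were positive.

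**Figure D2:**
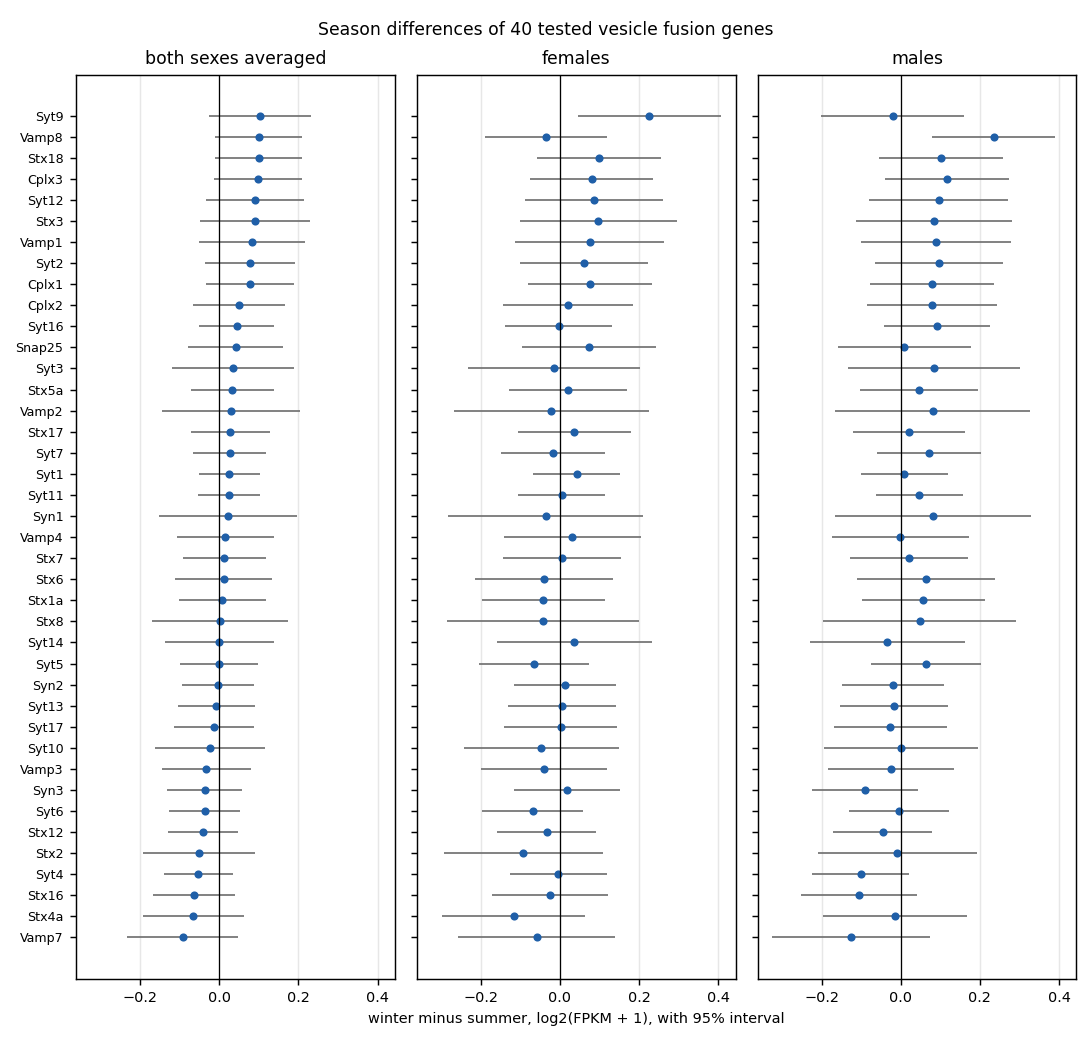
Winter minus summer difference of 40 of the 41 tested members on the log2(FPKM + 1) scale, for both sexes averaged, for females and for males, with the limma 95% interval as a line. For both sexes each interval plotted includes 0. Syt9 in females and Vamp8 in males are the members whose intervals lie above 0.

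Among the target-membrane SNAREs, the synaptic syntaxin Stx1a averaged 81.6 ± 4.53 FPKM in winter and 81.3 ± 6.47 FPKM in summer (SD, n = 6 each), a log2 difference of 0.01 ± 0.05 (SE). Snap25 averaged 1523 ± 114 FPKM in winter and 1478 ± 77.5 FPKM in summer, a difference of 0.04 ± 0.06.

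Most other syntaxins serve membranes outside the synapse. Stx18, a syntaxin of the endoplasmic reticulum, had 14.9, 13.5 and 12.5 FPKM in female winter brains and 12.5, 12.4 and 13.0 FPKM in female summer brains. In males it had 10.9, 12.9 and 12.4 FPKM in winter and 10.8, 11.6 and 11.1 FPKM in summer. The seasons overlapped in both sexes, and the difference over both was 0.10 ± 0.05 (unadjusted limma p of 0.0743, adjusted p of 0.997). Stx16, a trans-Golgi network syntaxin, averaged 33.1 ± 1.42 FPKM in winter and 34.7 ± 2.25 FPKM in summer, a difference of -0.06 ± 0.05. Stx4a, the file's symbol for the plasma membrane syntaxin Stx4, averaged 23.5 ± 1.74 FPKM in winter and 24.7 ± 2.01 FPKM in summer, a difference of -0.07 ± 0.06.

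Of the vesicle SNAREs, Vamp2, the main synaptobrevin of forebrain synapses, had 508, 445 and 446 FPKM in female winter brains and 554, 443 and 430 FPKM in female summer brains. In males it had 572, 571 and 493 FPKM in winter and 583, 540 and 432 FPKM in summer. Each group held both high and low libraries, and the season difference was 0.03 ± 0.08 with a 95% interval of -0.15 to 0.20. Vamp1, the synaptobrevin more abundant in brainstem and spinal cord, averaged 112 ± 2.66 FPKM in winter and 107 ± 11.5 FPKM in summer, a difference of 0.08 ± 0.06. Vamp2 exceeded Vamp1 between 3.88 and 5.28 times in winter libraries and between 4.23 and 5.19 times in summer libraries.

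Vamp8 was the member with the smallest season p in a single sex. This SNARE serves late endosomes and the secretory granules of non-neuronal cells. It had 8.02, 7.31 and 8.03 FPKM in male winter brains, against 6.20, 6.41 and 6.79 FPKM in male summer brains. In females it had 6.60, 6.48 and 7.58 FPKM in winter, against 6.83, 7.49 and 6.90 FPKM in summer. The male seasons did not overlap and the female seasons did. The male difference was 0.23 ± 0.07 (1.18-fold of FPKM + 1), with a limma p of 0.00577 and an adjusted p of 0.864. The female minus male season difference was -0.27 ± 0.10 (unadjusted limma p of 0.0191, adjusted p of 0.999). Vamp8 lies on chromosome 6 (chr6:72385221-72390667) near Vamp5 (chr6:72368049-72380468), which fell below the filter. Summed microglial markers, 8 of 8 measured, lay between 102 and 106 FPKM in male winter brains and between 103 and 112 FPKM in male summer brains. Summed blood markers, led by Hba-a1, lay between 163 and 240 FPKM in male winter brains and between 166 and 187 FPKM in male summer brains, with Hbb-bt at 0 in all libraries. Both lists overlapped between the seasons, and their part in the Vamp8 values was not tested.

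Vamp7, a lysosomal SNARE that also serves neurite outgrowth, had the most negative season difference, -0.09 ± 0.07, with 12.8 ± 1.15 FPKM in winter and 13.7 ± 1.14 FPKM in summer. With single libraries left out it ranged from -0.13 to -0.04.

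Among the calcium sensors, Syt1, the fast sensor of forebrain synapses, was the steadiest member. It had 375, 353 and 374 FPKM in female winter brains and 350, 349 and 370 FPKM in female summer brains. In males it had 369, 362 and 352 FPKM in winter and 357, 356 and 362 FPKM in summer. Its season difference was 0.03 ± 0.04, with a 95% interval of -0.05 to 0.10. Syt2, the fast sensor of brainstem and other rapid synapses, averaged 18.02 ± 1.25 FPKM in winter and 17.0 ± 1.56 FPKM in summer, a difference of 0.08 ± 0.05. Syt7, the slow sensor of asynchronous release and facilitation, averaged 64.4 ± 3.95 FPKM in winter and 63.1 ± 1.99 FPKM in summer, a difference of 0.03 ± 0.04.

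Syt9, the third fast sensor of release and a sensor in limbic neurons, was the member with the smallest season p in females. It had 7.95, 7.86 and 8.03 FPKM in female winter brains, against 6.11, 7.50 and 6.41 FPKM in female summer brains. In males it had 8.18, 6.50 and 7.11 FPKM in winter, against 7.59, 6.91 and 7.58 FPKM in summer. The female seasons did not overlap and the male seasons did. The female difference was 0.23 ± 0.08 (1.17-fold of FPKM + 1), with a limma p of 0.0183 and an adjusted p of 1. The female minus male season difference was 0.25 ± 0.12 (unadjusted limma p of 0.0583, adjusted p of 0.999).

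The other synaptotagmins named by their season p in 1 sex had differences between -0.10 and 0.09. Syt4, a synaptotagmin of dense-core and other vesicles that does not bind calcium in the usual way, had 67.0, 71.7 and 69.0 FPKM in male winter brains, against 73.2, 75.2 and 74.5 FPKM in male summer brains. The male seasons did not overlap, and the male difference was -0.10 ± 0.06 (unadjusted limma p of 0.0989, adjusted p of 0.974). In females Syt4 had 74.2, 71.8 and 72.7 FPKM in winter and 67.2, 75.6 and 76.8 FPKM in summer, which overlapped. Syt16 differed by 0.09 ± 0.06 in males, and by 0.03 without male winter replicate 2. Syt6 and Syt5 differed by -0.07 ± 0.06 each in females, and by -0.02 and -0.01 without female summer replicate 1.

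Complexins had positive season differences that did not pass the test. Cplx1, the complexin of many inhibitory and fast synapses, had 360, 387 and 383 FPKM in female winter brains and 404, 351 and 322 FPKM in female summer brains. In males it had 375, 385 and 390 FPKM in winter and 380, 360 and 350 FPKM in summer. The seasons overlapped in each sex, and the difference was 0.08 ± 0.05. Cplx2, the complexin of most forebrain excitatory synapses, averaged 268 ± 24.2 FPKM in winter and 259 ± 12.2 FPKM in summer, a difference of 0.05 ± 0.05. Cplx3 had 4.36, 4.06 and 4.38 FPKM in male winter brains, against 3.82, 3.88 and 3.87 FPKM in male summer brains. Its male seasons did not overlap, at a difference of 0.12 ± 0.07 (unadjusted limma p of 0.132, adjusted p of 0.974), and over both sexes it differed by 0.10 ± 0.05.

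Of the synapsins, Syn1 had the highest mean and the largest spread, and its range overlapped that of Syn2. Within single libraries the ratio of Syn1 to Syn2 lay between 0.984 and 1.39. Syn2 was the higher only in female summer replicate 3, at 151 FPKM against 149 FPKM. Syn1 had 176, 181 and 163 FPKM in female winter brains and 220, 170 and 149 FPKM in female summer brains. In males it had 226, 208 and 203 FPKM in winter and 211, 216 and 177 FPKM in summer. The spread within female summer alone covered 149 to 220 FPKM, and the season difference was 0.02 ± 0.08. Syn2 averaged 162 ± 6.56 FPKM in winter and 163 ± 7.60 FPKM in summer, a difference of -0.00378 ± 0.0422 (SE). Syn3, the least abundant synapsin in these brains, averaged 7.76 ± 0.57 FPKM in winter and 7.97 ± 0.29 FPKM in summer, a difference of -0.04 ± 0.04. Each synapsin gene carries a Timp gene in an intron on the opposite strand, and the strand setting of the counting is not given in the sources used here.

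In females 0 of 41 members and 0% of all genes were called by limma. At an unadjusted p below 0.05 there was 1 member, Syt9, against 1.74% of all genes. In males 0 of 41 members and 0.00765% of all genes were called. At an unadjusted p below 0.05 there was 1 member, Vamp8, against 5.01% of all genes, and 1 to 2 members with single libraries left out. Female seasons did not overlap for 1 member, Syt9, which was higher in winter, against 4.2% of all genes (1.92% higher and 2.28% lower). Male seasons did not overlap for 5 members, with Vamp8, Stx6, Stx1a and Cplx3 higher and Syt4 lower, against 12.6% of all genes (6.12% higher and 6.53% lower). Positive differences were found for 22 of 41 members in females, against 48.3% of all genes, and for 26 of 41 in males, against 48% of all genes. The female minus male season difference was called for 0 of 41 members (0% of all genes), and 1 member, Vamp8, passed an unadjusted p of 0.05, against 1.8% of all genes. With single libraries left out 0 to 2 members passed it, with 0 without female winter replicate 2. The share of all genes in fits with libraries left out was not counted, for males or for the female minus male season difference. The difference was positive for 15 of 41 members and for 51.6% of all genes.

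**Figure D3:**
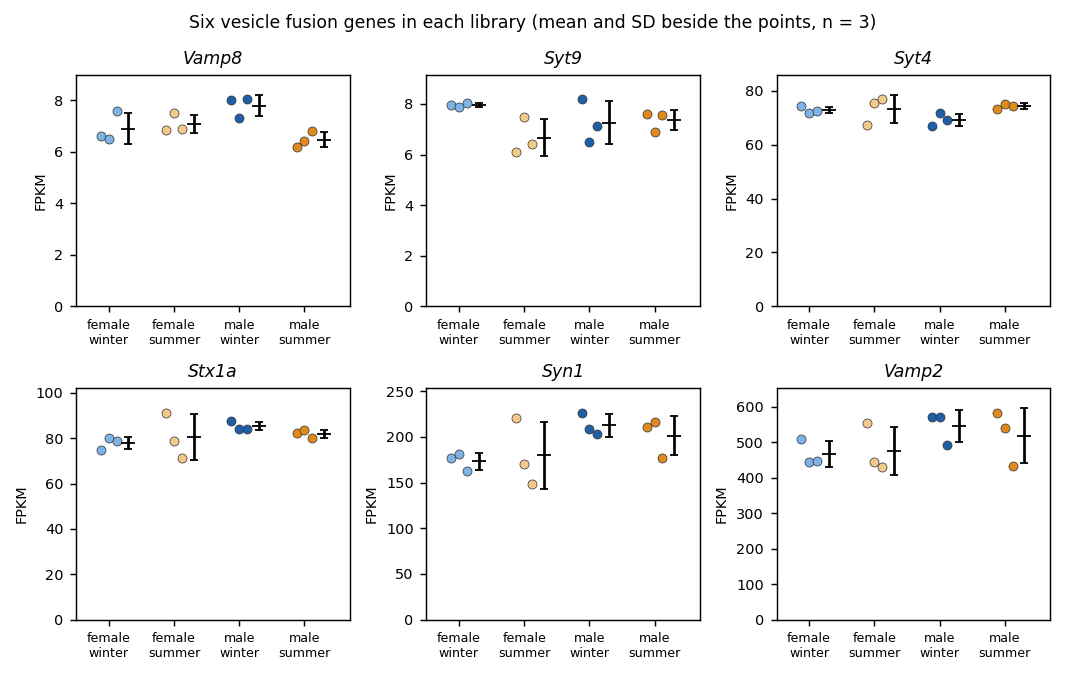
FPKM of 6 members in each library (points), with the mean and SD of each group of 3 beside them. Vamp8 separates the male seasons and Syt9 the female seasons, Syt4 lies below the male summer values in male winter, and Stx1a and Syn1 have their widest spread in female summer and Vamp2 in male summer.

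Genes that work with the fusion machinery were counted in the same fit. A list of 50 partners (Munc18 and Munc13 proteins, the disassembly factors NSF and SNAP, active zone scaffolds, Rab3 and vesicle membrane proteins) had 49 tested members, of which 0 were called in any of the 5 contrasts. For season over both sexes 22 were positive and 27 negative, and 47.9% of all genes were positive. Positive differences were found for 28 of the 49 in females (48.3% of all genes), 17 in males (48%), 35 for the female minus male season difference (51.6%) and 28 for female minus male (55.3%). Doc2a, a high-affinity calcium sensor of spontaneous release, had 16.3 ± 0.68 FPKM in winter and 14.7 ± 1.07 FPKM in summer (SD, n = 6 each), a difference of 0.15 ± 0.05. Its unadjusted p was 0.0133 and its adjusted p 0.997. Synpr, a synaptophysin relative of the vesicle membrane, had 41.5 ± 2.95 FPKM in winter and 45.0 ± 1.98 FPKM in summer, a difference of -0.11 ± 0.05 (unadjusted limma p of 0.0325, adjusted p of 0.997). Unc13b, the priming factor Munc13-2, had 11.0 ± 0.73 FPKM in winter and 11.98 ± 0.45 FPKM in summer, a difference of -0.11 ± 0.05 (unadjusted limma p of 0.0331, adjusted p of 0.997). These were the 3 partners with an unadjusted p under 0.05 for season over both sexes, against 4.88% of all genes. That threshold was passed by 0 partners in females (1.74% of all genes), 3 in males (5.01%), 1 for the female minus male season difference (1.8%) and 6 for female minus male (11.6%). Of 27 genes of vesicle recycling (dynamins, clathrin, its adaptors and their helpers), 14 were positive and 13 negative for season over both sexes. Of 12 genes of transmitter loading (vesicular transporters and the proton pump), 7 were positive and 5 negative. In the recycling and loading lists limma called 0 genes in any of the 5 contrasts. For season over both sexes and in females 0 of them passed an unadjusted p of 0.05. In the loading list 1 passed it in males, 1 for the female minus male season difference and 2 for female minus male, and in the recycling list 1 passed it for female minus male.

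Females were also compared with males, averaged over the seasons. Limma called 0 of 41 members, beside 8 of 13071 genes (0.0612%). An unadjusted p under 0.05 was reached by 5 of 41, with 4 higher and 1 lower in females, and 11.6% of all genes passed that threshold. With single libraries left out that count ranged from 4 to 9, with 9 without female summer replicate 1. Without that library limma called 136 of all genes in place of 8. The share of all genes past the unadjusted threshold in those fits was not counted. The difference was positive for 20 of 41 members and for 55.3% of all genes. Syt11 had 221 to 231 FPKM with a median of 225 FPKM in females, and 195 to 216 FPKM with a median of 212 FPKM in males. It was the 1 member whose sexes did not overlap, against 0.643% of all genes (0.398% higher), at a difference of 0.11 ± 0.04 (adjusted p = 0.381). Stx18 had 12.4 to 14.9 FPKM with a median of 12.8 FPKM in females and 10.8 to 12.9 FPKM with a median of 11.3 FPKM in males, which overlapped, at 0.16 ± 0.05 (adjusted p = 0.369). Stx17, an autophagosomal syntaxin, differed by 0.13 ± 0.05 and Syt2 by 0.14 ± 0.05 (adjusted p = 0.395 for each).

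Syn1 was the member with a negative difference among these 5. It had 149 to 220 FPKM with a median of 173 FPKM in females, and 177 to 226 FPKM with a median of 210 FPKM in males. All but 1 of the female libraries lay at or below 181 FPKM, the exception being female summer replicate 1. The difference was -0.24 ± 0.08 (unadjusted limma p of 0.0119, adjusted p of 0.382). Without female summer replicate 1 it was -0.31 with an adjusted p of 0.0440, and the count over all genes was then 136 in place of 8. Without female summer replicate 3 it was -0.17 with an adjusted p of 0.707. Vamp2 had 430 to 554 FPKM with a median of 445 FPKM in females and 432 to 583 FPKM with a median of 555 FPKM in males, at a difference of -0.17 ± 0.08 (unadjusted limma p of 0.0509, adjusted p of 0.432).

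The 5 members with the largest spread around their group means, on the log2(FPKM + 1) scale, were Syn1 (SD 0.172), Vamp2 (SD 0.171), Stx8 (SD 0.158), Syt3 (SD 0.146) and Vamp7 (SD 0.127). Syt1 at 0.039 and Syt11 at 0.043 were the steadiest of those tested. The median SD of the members was 0.0898, against 0.0998 for all genes tested. Of these 5, Syn1 and Syt3 followed the GC trend of the libraries, described next, and Vamp7 ran against it.

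Libraries differed in how their genes deviated with the GC content of the transcript. The Spearman correlation of a library's deviations from the gene means with transcript GC, across 12940 genes, was 0.56 in male winter replicate 3 and 0.49 in female summer replicate 1, and -0.61 in female winter replicate 1 and -0.68 in female summer replicate 3. By group it averaged -0.13 in female winter, -0.14 in female summer, 0.37 in male winter and 0.08 in male summer. This measure was examined after the data had been seen, and genes across 1 library are not independent replicates. Because the trend is made from all genes, genes of extreme GC content take part in setting it.

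The members spread along this trend by their own GC content. Of 24 members with 50% GC or more, 20 had a positive correlation with the trend over the 12 libraries, as did 76.5% of all genes above that content. Of 16 members under 50%, 15 had a negative one, as did 86.9% of all genes below it. Across the 40 members with a GC value, GC content and that correlation had r = 0.84. This r is only a description, since members share the libraries and the trend is itself made from GC content. With the group means removed it was 0.84, and without female winter replicate 1 and female summer replicate 3 it was 0.80. Without those libraries 21 of 24 GC-rich members were positive and 11 of 16 GC-poor members negative. With a permutation p adjusted over all 13071 genes, 14 of 41 members passed 0.05, against 26.3% of all genes.

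The coding starts of picked members that followed the trend (Stx1a and Syt7) or ran against it (Vamp4 and Syt14) differ in base composition. The trend is made from transcript GC content, so this contrast is partly built into the choice and is shown only as illustration. Coding starts of the other members and of all genes were not compared. They were read from GENCODE M21 on GRCm38, the first 90 coding bases of the longest protein-coding transcript, with G and C in capitals. The reference is C57BL/6J, not CBA/N.
Stx1a (chromosome 5, + strand): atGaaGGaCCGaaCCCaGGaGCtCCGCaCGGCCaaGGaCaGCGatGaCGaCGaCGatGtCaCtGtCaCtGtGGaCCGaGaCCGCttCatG
Syt7 (chromosome 19, + strand): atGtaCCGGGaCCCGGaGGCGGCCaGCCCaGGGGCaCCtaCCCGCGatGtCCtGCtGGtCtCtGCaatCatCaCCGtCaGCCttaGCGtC
Vamp4 (chromosome 1, + strand): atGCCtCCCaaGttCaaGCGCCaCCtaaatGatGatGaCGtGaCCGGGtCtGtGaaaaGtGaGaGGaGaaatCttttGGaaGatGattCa
Syt14 (chromosome 1, - strand): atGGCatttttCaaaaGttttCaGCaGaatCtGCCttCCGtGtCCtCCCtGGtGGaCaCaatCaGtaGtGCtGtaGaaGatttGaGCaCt
G and C make up 60.0% of these bases in Stx1a and 65.6% in Syt7, against 45.6% in Vamp4 and 44.4% in Syt14. Over the whole transcripts the GC content was 58.5% in Stx1a, 54.7% in Syt7, 44.2% in Vamp4 and 42.7% in Syt14.

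Stx1a had the highest Pearson correlation with the trend of the 41, and Syt7 the highest Spearman correlation. Stx1a had 75.0, 79.9 and 78.7 FPKM in female winter brains, 91.3, 78.9 and 71.5 FPKM in female summer brains, 87.4, 84.3 and 84.2 FPKM in male winter brains and 82.4, 83.5 and 79.9 FPKM in male summer brains. Its lowest and highest libraries were both female summer, replicates 3 and 1, whose trend values were -0.68, the lowest of the 12, and 0.49. The correlation was r = 0.90 and rho = 0.86 over 12 libraries (permutation adjusted p = 0.00306 over all genes), and r = 0.77 without female winter replicate 1 and female summer replicate 3. Syt7 had r = 0.88 and rho = 0.90 (adjusted p = 0.00300), Cplx2 r = 0.81 and rho = 0.74 (adjusted p = 0.0113), and Syn1 r = 0.81 and rho = 0.80 (adjusted p = 0.0143). Syt3, Stx6, Cplx1, Syt5, Stx5a and Stx2 completed the 10 members that followed the trend.

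The 4 members that ran against it were Syt14, Syt4, Vamp4 and Vamp7. Syt14 had r = -0.80 and rho = -0.70 (permutation adjusted p = 0.0171), and Syt4 r = -0.76 and rho = -0.78 (adjusted p = 0.0241). Vamp4 had r = -0.73 and rho = -0.70 (adjusted p = 0.0231), which became -0.36 without female winter replicate 1 and female summer replicate 3 and so rests on those libraries. Vamp7 had r = -0.72 and rho = -0.77 (adjusted p = 0.0304). Of the 14 members, 10 kept a correlation of 0.6 or more in size without these libraries. Beside Vamp4, those that did not were Stx5a at 0.47, Stx6 at 0.30 and Stx2 at 0.21. Snap25, at 43.4% GC, had r = -0.23, and Syt1, at 45.8% GC, r = -0.55, neither past the threshold.

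**Figure D4:**
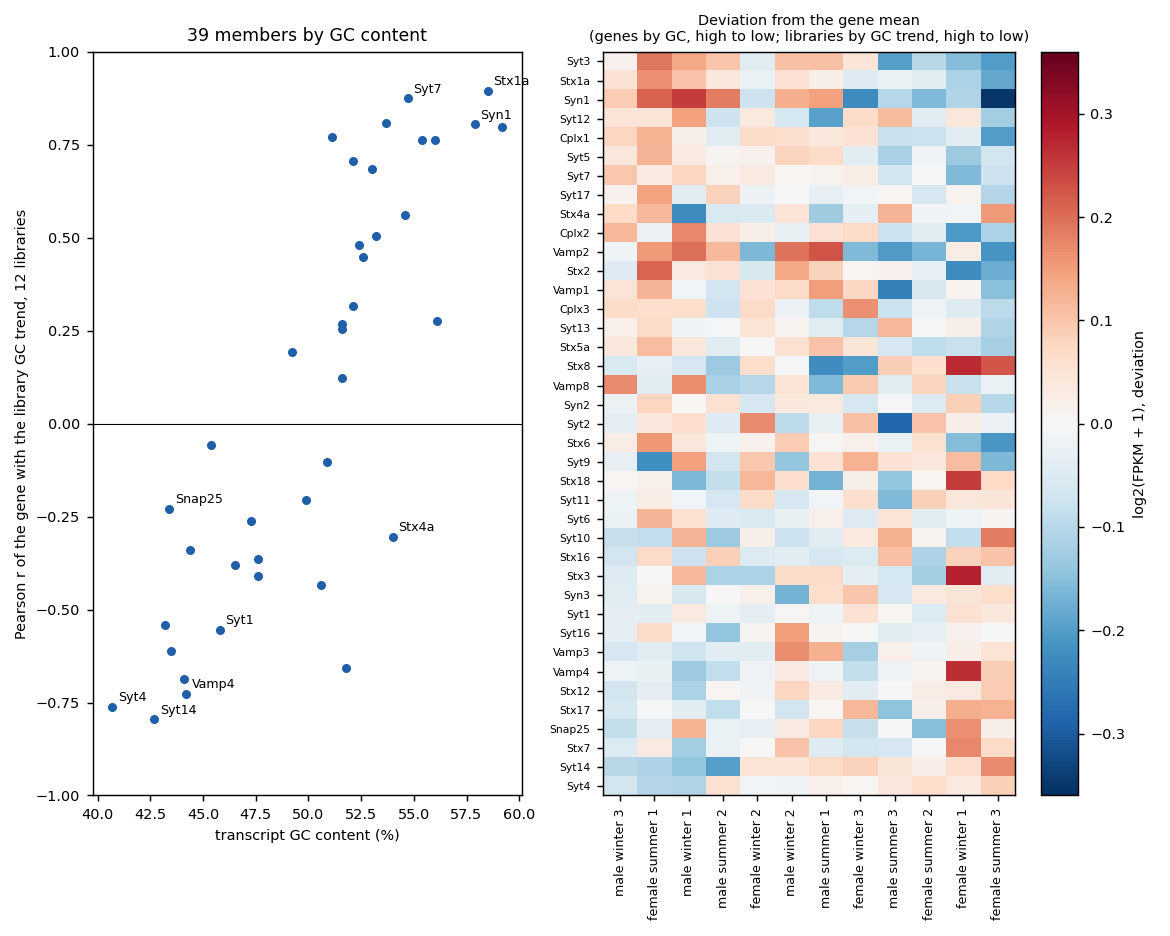
Left, transcript GC content (%) of 39 members against their Pearson correlation with the library GC trend over 12 libraries, 1 point a gene. Right, deviation of each member from its own mean on the log2(FPKM + 1) scale, genes ordered by GC content and libraries by GC trend, red above and blue below the mean; GC-rich members such as Stx1a and Syn1 are red at the left and blue at the right, and GC-poor members such as Syt4 and Syt14 the reverse.

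A correction for transcript GC content was also added after the data had been seen. It subtracts a curve fitted to the same values, so a lower spread is partly built in. Of the 41 members, Vamp7 had no GC value and was left uncorrected. The within-group SD fell for 32 of 41 members, with a median of 0.0741 after the correction and 0.0898 before it. For all genes the median was 0.0854 after it and 0.0998 before it, and the share with a lower SD was not counted. For Stx1a the SD was 0.0433 after it and 0.0934 before it, and for Syn1 0.131 after it and 0.172 before it. The count of members called for season stayed at 0, and the female minus male difference of Syn1 was then -0.17 (adjusted p = 0.411). The libraries of male winter replicates 1 and 3 stood high on the trend at 0.44 and 0.56, and the trend averaged 0.37 in male winter and 0.08 in male summer. Of the members whose male seasons did not overlap, Stx1a and Stx6 followed the trend, Syt4 ran against it, and Vamp8 and Cplx3 did not pass the threshold for it. With the correction the male season difference of Syt4 was -0.0559, against -0.10 without it, and that of Vamp8 was 0.24, against 0.23 without it. For Cplx3 it was 0.11 with the correction and 0.12 without. The trend also averaged -0.14 in females and 0.23 in males, beside the sex difference of Syn1. The part of the trend in these season and sex differences was not tested.

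Single pairs of members and brain-region markers were also compared over the 12 libraries, 9 relations in all, on values without the GC correction. Syt2, Vamp1 and Cplx1 were chosen as the isoforms of fast brainstem synapses. Vamp1 and Cplx1 moved together, with r = 0.82 (permutation p adjusted over the 9 relations = 0.0104) and rho = 0.80 (adjusted p = 0.0219). Without male summer replicate 3 and female summer replicate 3 they had r = 0.79. With the GC trend Cplx1 had r = 0.76 and Vamp1 r = 0.45, and the part of that trend in their relation was not tested. Syt2 followed the summed level of 14 hindbrain markers, with r = 0.75 (permutation adjusted p = 0.0410) and rho = 0.69 (adjusted p = 0.0686). Without male summer replicate 3 and male winter replicate 1 it had r = 0.67. With the same sum Vamp1 had r = 0.62 (adjusted p = 0.0972), and 0.185 without those libraries, and Cplx1 r = 0.26 (adjusted p = 0.608). The permutations disregarded the groups, so these p-values also take in differences between groups. Only 2 of these 14 markers, the glycinergic genes Slc6a5 and Glra1, reached 1 FPKM in 3 libraries, and the Hox genes on the list stayed at or below 0.39 FPKM. The hindbrain sum lay between 8.97 and 11.0 FPKM in female winter brains, 9.45 and 10.3 FPKM in female summer brains, 6.03 and 10.0 FPKM in male winter brains and 3.99 and 8.85 FPKM in male summer brains. It moved with the sex difference of Syt2, and its part in that difference was not tested. Syt2 and Vamp1 had r = 0.53, and -0.02 without male summer replicate 3 and female winter replicate 2, so that relation rests on those libraries. None of the 3 relations with the cerebellar list passed an adjusted p of 0.05, with r between 0.07 and 0.15.

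The start regions of the members were searched for short motifs. Syn1 and Stx1a, on different chromosomes, are shown as examples of the members that followed the library GC trend. Of all genes, 26.3% passed the threshold for that trend in either direction. No searched motif was found in both genes, and a shared control of them was not tested. RefSeq promoters on GRCm38.p6 were found for 35 of 48 members, with 47 windows of 300 bases. The letters TTCAGCACC, the left part of the RE1 element that the neuronal repressor REST binds, were found on either strand in 1 of 47 member windows, that of Syn1, and in 0.371% of all windows. The cyclic AMP response element TGACGTCA was found in 1 of 47, again Syn1, and in 1.79% of all windows. The E-box CACGTG was found in 6 of 47 and in 7.15% of all windows, and the GC box GGGCGG in 31 of 47 and in 35.7% of all windows. A match is a description of the letters, not evidence of binding. The 250 bases before each start are shown for both genes, with the matches in capitals: the RE1 part and the cyclic AMP response element in Syn1, and the GC box in Stx1a.
Syn1 (chrX:20920919-20921168, - strand): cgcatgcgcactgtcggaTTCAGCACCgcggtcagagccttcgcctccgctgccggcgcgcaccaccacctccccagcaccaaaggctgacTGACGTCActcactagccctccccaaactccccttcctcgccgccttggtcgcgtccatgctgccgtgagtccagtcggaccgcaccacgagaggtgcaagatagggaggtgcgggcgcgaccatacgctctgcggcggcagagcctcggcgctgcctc
Stx1a (chr5:135023232-135023481, + strand): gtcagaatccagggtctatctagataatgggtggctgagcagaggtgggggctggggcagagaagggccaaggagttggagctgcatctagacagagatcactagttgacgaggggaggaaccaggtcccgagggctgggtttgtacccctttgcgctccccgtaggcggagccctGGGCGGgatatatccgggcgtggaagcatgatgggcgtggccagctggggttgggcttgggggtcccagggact
The RE1 part begins 232 bases and the cyclic AMP response element 159 bases before the start of Syn1. G and C make up 68.0% of the bases shown in Syn1 and 62.0% in Stx1a, and 57.9% and 58.5% of their transcripts. The GC content of other start regions was not compared, and the library trend was computed from transcripts only.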

How the data were processed

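Strand-specific paired-end libraries were made from poly-A RNA, per the labels' protocols. The submitters' processing notes name HISAT, RSEM and GRCm38.p6, and no versions. The authors deposited 1 table of FPKM values with 2 decimals for 18962 genes in 12 libraries, and 1 line without values was not used here. All 48 members matched RefSeq by gene ID. The values of 1 member are not reported here; it enters the counts. For genes listed with a single transcript, low values were set against the gene's lowest value over all libraries, with 0.005 FPKM allowed for rounding in each. They came out as whole multiples in 71.4% of 318 cases. Libraries can differ in depth, so this check could not decide whether the values rest on whole reads. Whole reads were not recovered, the depth is unknown and no counting error is given. FPKM is relative to the rest of a library.

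The 13071 genes reaching 1 FPKM in 3 or more libraries were tested as log2(FPKM + 1), which understates changes of low genes, with limma 3.58.1 in R 4.3.3. The model had 4 group means, 8 residual degrees of freedom and trended variances. Tests were two-sided, with Benjamini-Hochberg adjustment over all genes at 0.05, for 5 contrasts: winter minus summer over both sexes, in females and in males, the female minus male season difference, and female minus male. Correlations used 100000 permutations over all 12 libraries, without regard to group. Python 3.11.15, pandas 2.3.3, numpy 2.4.6, scipy 1.17.1 and matplotlib 3.10.9 made tables and plots.

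The members and gene lists were chosen with earlier results of these data known. Named are release genes, the members with the smallest p in each direction of each contrast, the 5 with the largest spread, the 3 highest below the filter and, per partner list, up to 3 genes a direction. Genes named for the GC trend were chosen after their values were seen. GC content is that of the longest protein-coding GENCODE M21 transcript, and the correction subtracts, library by library, a lowess curve (span 0.3). Alternatives were 2 pseudocounts, 2 filters, 2 scalings, the variance model, each sex alone, a replicate block and leaving out libraries.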

Additional observations from a re-analysis of the deposited data

Results flagged for a closer look

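Within the season arms of 6 libraries, 60 arms of 30 named members were examined for a library standing apart by Dixon's test, and 5 were found where chance gives about 1 in 20. Syt7 had 56.95 FPKM in female winter replicate 1, against 64.0 to 68.1 FPKM in the other winter libraries. Stx16 had 35.94 FPKM in the same library, against 32.1 to 32.9 FPKM in the others. That library has a GC trend of -0.61, and Syt7 follows the trend with r = 0.88. Syt4 had 67.16 FPKM in female summer replicate 1, against 73.2 to 76.8 FPKM in the other summer libraries. That library has a GC trend of 0.49, and Syt4 runs against the trend with r = -0.76. Syt16 had 28.21 FPKM in male winter replicate 2, against 24.7 to 25.6 FPKM in the others. Syt6 had 14.97 FPKM in male winter replicate 1, the library with the high cerebellar markers, against 13.8 to 14.2 FPKM in the others. The part of these library properties in the values was not tested.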

How the results depend on the processing

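Over 25 alternatives, the count of members called was 0 in 116 of 117 values. The exception was 1 member, Syn1 for female minus male, without female summer replicate 1, so that count ranged from 0 to 1 with single libraries left out. Of 929 values for named genes, 21 changed sign. Without single libraries the season difference over both sexes ranged from -0.0332 to 0.0539 for Stx1a, -0.0403 to 0.1002 for Syn1, -0.0335 to 0.0863 for Vamp2 and -0.0281 to 0.0216 for Syn2. It kept its sign but ranged from 0.00413 to 0.0687 for Snap25, lowest without female winter replicate 1, from 0.03995 to 0.122 for Cplx1, lowest without female summer replicate 3, and from 0.0348 to 0.134 for Vamp1, lowest without male summer replicate 3. Without female winter replicate 1 and female summer replicate 3 it was -0.0201 for Stx1a, -0.0365 for Vamp2 and -0.0471 for Syn1. With the GC correction it was -0.0103 for Stx1a, also with the replicate block, and with median-ratio scaling 0.000407 for Syn2. The cause was not tested.

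The members' median season difference was 0.0174 in males with no filter, where 48 genes enter, and ranged from 0.0118 to 0.0491 in males and -0.00784 to 0.0303 in females without single libraries. The median female minus male season difference ranged from -0.0477 to 0.00256 without single libraries, and was -0.0427 without the 2 libraries above. Over all genes, season calls ranged from 1 to 3 over both sexes, 1 to 3 in males and 0 to 1 in females, and calls for sex from 8 to 136, without single libraries. The GC correction called 2 genes for season, and with the replicate block 4 for season and 14 for sex. Of 18 same-numbered pairs of libraries, 6 had deviations correlated over 0.1, and 4 of 12 libraries correlated best with their own number, so the numbers were not taken to pair the samples. With the replicate block limma called 0 members in every contrast. With 3 libraries a group and unknown depth, small changes were not detectable.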
